A study of Mus musculus with 12 samples.

Results

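Colonies that carried the GFP marker and the leukemia they were grown from were compared on 6 of the 12 arrays of the series, 3 arrays in each group. Per the labels, the leukemia cells came from the spleen of a NOTCH1 leukemia mouse model, and the GFP-positive colonies, described there as partially reprogrammed, came from those leukemia cells. All 4 groups, which also include GFP-negative colonies described as reprogrammed and induced pluripotent stem (iPS) cells, share the mouse genotype R26rtTA;Col1a12lox-4F2A. This genotype joins a doxycycline-dependent transactivator at the Rosa26 locus with an inducible cassette of the reprogramming factors at Col1a1. The labels name no drug, dose, day or animal age, and do not say what GFP marks. The 3 leukemia titles carry the same leukemia number, and nothing in the labels ties the biological replicates of a group to different animals or cultures. The p-values therefore reflect only the spread between these arrays, which may be technical. Values are log2 levels, on which a difference of 1 is a 2-fold change, with n = 3 arrays per group throughout. Differences are GFP-positive colonies minus leukemia, ± the standard error of the fit. A gene was called at an adjusted p under 0.05 (limma, Benjamini-Hochberg over all 22180 genes), with the spread estimated over the 4 groups together. A wide spread among the GFP-negative arrays can therefore leave a gene uncalled even where the compared groups lie apart. The leukemia and iPS arrays were closely alike (median SD over genes 0.105 and 0.0998, against 0.217 in the GFP-positive colonies). For genes that vary among the colonies, they can make the standard error and p-value smaller than the colony spread alone would give.

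A leukemia cell of blood origin grows without fixed contacts, senses its surroundings through immune receptors and moves by a blood-specific actin machinery. Epithelial cells are held together by tight junctions, gap junctions and desmosomes, rest on a basement membrane of laminin, nidogen and collagen IV, and read growth factors through receptors such as those of the EGF family. In cultured fibroblasts, reprogramming factors are known to install epithelial junctions early, before the pluripotency network is complete. Colonies were picked whole for RNA, so fewer cells of a type and less RNA per cell cannot be told apart in these data.

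Among 22180 genes, the GFP-positive colonies had 2129 above the leukemia level (9.6%) and 2719 below it (12.3%). At least 2-fold differences numbered 1394 among the higher and 991 among the lower genes. Higher genes made up 43.9% of the calls, and 57.1% after cyclic loess normalization, so the balance between rises and falls depends on the scaling. Leukemia arrays were nearly alike (r = 0.994 across genes, median SD 0.105), whereas GFP-positive arrays were spread more widely (r from 0.937 to 0.975, median SD 0.217). GFP-positive replicate 3 stood apart: 191 genes lay at least 2 log2 units above both other GFP-positive arrays and 83 as far below both, against 18 and 1 genes for replicate 1 and 19 and 12 for replicate 2. T lineage genes, checked against the leukemia label, averaged 9.09 to 9.14 on the leukemia arrays and 5.36 to 5.94 on the colony arrays, and 30 of 33 were lower in the colonies. No label names a cell type for the colonies beyond their origin. The 36 gene lists described here held 8 to 39 measured genes each.

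The 15 largest increases were picked among called genes whose groups did not overlap, with keratin, T lineage and pluripotency genes set aside. They were led by genes of cell contact and matrix. Nid1, which encodes the basement membrane linker nidogen-1, was at 3.99, 4.43 and 4.44 on the leukemia arrays and at 12.61, 10.91 and 9.89 on GFP-positive arrays 1, 2 and 3. This difference of 6.85 ± 0.58 was the largest increase named (limma adjusted p = 1.58e-05), although the GFP-positive arrays themselves spanned more than 2 log2 units. Cdh1, the E-cadherin gene of adherens junctions, was at 5.93, 5.85 and 6.14 in leukemia and at 12.62, 12.20 and 12.48 in the colonies, which lay close together. Enah, a regulator of actin filament growth at cell contacts, went from 4.20, 4.62 and 4.81 to 10.91, 11.32 and 10.51 (difference 6.37 ± 0.29, limma adjusted p = 1.37e-07). Fn1, which encodes fibronectin, went from 5.63, 5.60 and 5.58 to 10.84, 11.52 and 11.43. Fgfbp1, a secreted carrier of fibroblast growth factors, differed by 6.74 ± 0.51, the surface glycoprotein gene Msln (mesothelin) by 5.59 ± 1.02 and Mall, a membrane raft protein of the MAL family, by 5.38 ± 1.02.

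Several of the largest increases were uneven among the colonies. Klk1, a tissue kallikrein protease gene, read 8.55, 8.85 and 13.06 on GFP-positive replicates 1, 2 and 3 against 4.29, 4.10 and 4.03 in leukemia, and Gabrp, the pi subunit of the GABA type A receptor, read 10.20, 10.24 and 13.11 against 5.60, 5.87 and 5.77. For both genes replicate 3 was the highest array by more than 2 log2 units. Bex1, a brain-expressed X-linked gene, ran the other way, at 12.44, 12.24 and 9.70 in the colonies with replicate 3 lowest and at 5.89, 5.06 and 5.23 in leukemia. The zinc finger gene Zfp640 was at 9.38, 10.82 and 5.49 against 2.90, 3.02 and 3.07, and its call (limma adjusted p = 0.0368) was lost without any 1 leukemia array, or without GFP-positive replicate 1 or 2 (adjusted p from 0.0934 to 0.114) and with the mean of its probe sets (adjusted p = 0.0903). Arhgap32, a GTPase-activating protein gene, was even across the colonies, at 10.53, 9.54 and 9.98 against 4.57, 4.46 and 4.52. The remaining named increases, Cldn4, Dsg3 and Me1, are described with their families.

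**Figure D1:**
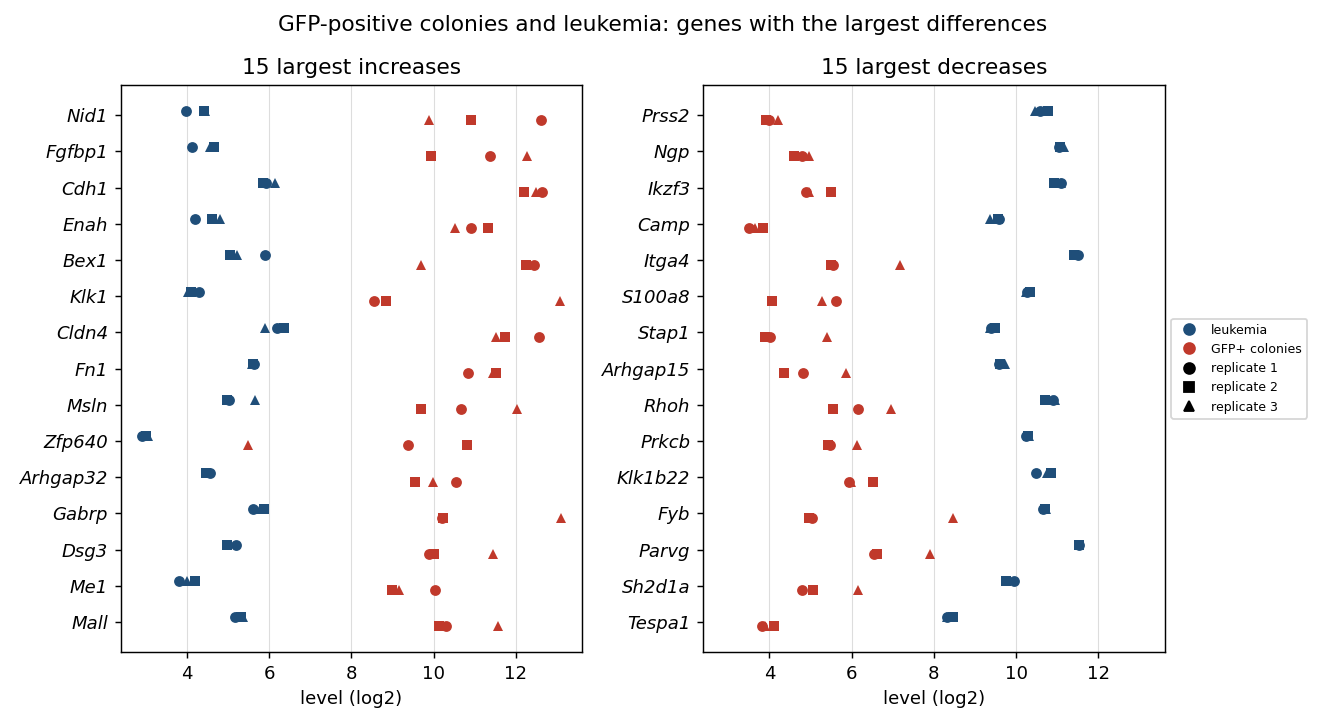
Level (log2) of the 15 genes with the largest increases and the 15 with the largest decreases on the 3 leukemia and 3 GFP-positive arrays; each point is 1 array and the shape gives its replicate number. The genes were picked among called genes whose groups do not overlap, so the gap between groups follows from the choice. The leukemia points lie close together, and replicate 3 of the colonies lies apart for Klk1, Gabrp, Zfp640 and Fyb.

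Tight and gap junction genes rose as a group. Of 36 measured genes 25 were higher and 1 lower, with a median difference of 1.65 against -0.04 over all genes. Cldn4, a claudin of the tight junction barrier, was at 6.18, 6.35 and 5.91 in leukemia and 12.56, 11.74 and 11.51 in GFP-positive colonies, a difference of 5.79 ± 0.65 (limma adjusted p = 0.000131). F11r, the junctional adhesion molecule A, went from 6.00, 5.82 and 6.10 to 11.55, 10.73 and 11.08. Tjp1, which encodes the scaffold ZO-1 beneath the junction, went from 4.59, 4.93 and 4.78 to 10.01, 9.39 and 9.87, and no colony array overlapped a leukemia array for these 3 genes. Nectin3, a nectin of the adherens junction, differed by 3.32 ± 0.22 and Gja1, which encodes the gap junction protein connexin 43, by 4.04 ± 0.28 (limma adjusted p = 3.34e-06). Cgn, the junction adaptor cingulin, was not called at a difference of 1.07 ± 0.35 (limma adjusted p = 0.0511), nor was Marveld2, the tricellulin gene, at 1.66 ± 0.60.

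Desmosome and hemidesmosome genes showed the highest share of rises of the 36 lists, 17 of 21, with none lower and a median difference of 2.89. In all 21 genes the 3 GFP-positive arrays lay above the 3 leukemia arrays, a pattern that 18.1% of all genes had. Dsg2, a desmosomal cadherin of simple and layered epithelia, was at 4.31, 4.06 and 4.52 in leukemia and 9.61, 9.28 and 9.15 in the colonies. Dsg3, a desmoglein typical of basal layers of stratified epithelium, differed by 5.39 ± 1.11, with replicate 3 highest. Dsc2, a desmocollin, differed by 4.38 ± 0.84 (limma adjusted p = 0.00379), and Perp, a tetraspan desmosome protein first known as a p53 target, by 5.21 ± 0.71 (limma adjusted p = 0.000435). Dsc1, the desmocollin of upper epidermal layers, was not called at 0.66 ± 0.29, nor was the linker gene Plec at 1.45 ± 0.47 (limma adjusted p = 0.0512).

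Basement membrane and integrin genes had 19 of 35 members higher and 2 lower, with a median of 1.85. Besides Nid1, the laminin alpha 5 gene Lama5 went from 6.14, 5.96 and 5.93 to 10.48, 9.89 and 10.35 (limma adjusted p = 1.19e-05). Sparc, a matrix protein that binds collagen IV, went from 4.91, 5.07 and 5.54 to 9.97, 9.58 and 9.10, and the integrin alpha 3 gene Itga3, a laminin receptor chain, from 5.22, 5.31 and 6.02 to 10.36, 9.46 and 8.52. These 3 genes did not overlap between groups, and Itga3 was lowest among the colonies on replicate 3. Parvg, the parvin of blood cells, fell within the same list, from 11.54, 11.53 and 11.54 to 6.54, 6.63 and 7.92 (difference -4.51 ± 0.34). Nid2, the second nidogen, was not called, since it was at 8.75, 9.69 and 6.05 on the 3 colony arrays and 6.07, 5.85 and 6.06 in leukemia. Of 20 proteoglycan and hyaluronan genes 8 were higher and 0 lower. Among them were Sdc4, the syndecan of focal adhesions (4.56 ± 0.30), Sdc2 (2.68 ± 0.32) and Sulf2, a sulfatase that trims heparan sulfate outside the cell (3.21 ± 0.25, limma adjusted p = 9.03e-06).

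**Figure D2:**
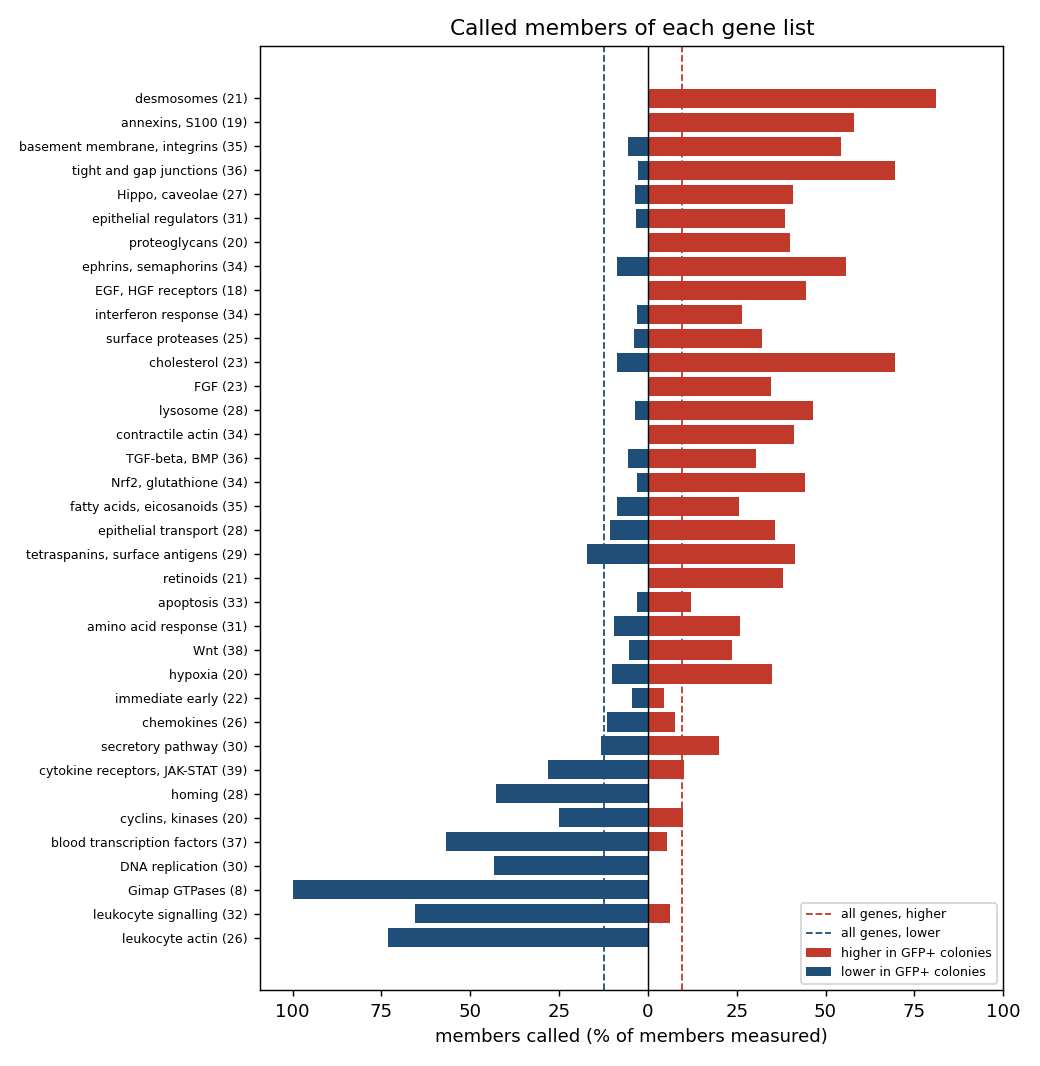
Share of the measured members of each of 36 gene lists that were called higher (to the right) or lower (to the left) in GFP-positive colonies than in leukemia, ordered by the median difference; the number measured is in parentheses and the dashed lines mark the shares over all genes, 9.6% higher and 12.3% lower. Desmosome genes lie at the top with 17 of 21 higher, and leukocyte actin genes at the bottom with 19 of 26 lower.

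Proteases of the epithelial surface and their inhibitors were both among the genes that rose. St14, the membrane protease matriptase, was at 6.18, 5.35 and 5.89 in leukemia and 10.87, 10.19 and 11.28 in GFP-positive colonies. Spint1, the Kunitz inhibitor of matriptase, was at 6.13, 5.66 and 6.52 and 10.52, 9.86 and 10.86, and Prss8, the protease prostasin, differed by 1.76 ± 0.22 (limma adjusted p = 0.000249). Serpinb5, the serpin maspin of epithelial cells, was at 9.26, 8.53 and 10.92 in the colonies against 4.59, 4.34 and 4.46. In this list 8 of 25 genes were higher and 1 lower, with 5 higher without leukemia replicate 1 or without leukemia replicate 3. Plau, the urokinase gene, was not called at 2.02 ± 0.67 (limma adjusted p = 0.0554).

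Among transcription and splicing regulators of epithelia 12 of 31 were higher and 1 lower, with a median of 1.12. Grhl2, a Grainyhead factor that activates junction genes, was at 5.08, 5.06 and 4.79 in leukemia and 8.98, 8.27 and 8.34 in the colonies. Esrp1, which directs epithelial splicing, was at 5.06, 5.01 and 4.85 and 9.88, 9.38 and 10.21, and Elf3, an epithelial ETS factor, at 4.75, 4.31 and 4.40 and 7.81, 7.62 and 8.09. These 3 genes were even across the colonies, whereas Ehf, another epithelial ETS factor, ranged over 8.18, 7.13 and 9.97 and Tfap2a, an AP-2 factor of ectoderm, over 8.66, 7.06 and 9.65, with replicate 2 lowest in both. Sox9 (difference 1.49 ± 0.52) and Barx2 (1.58 ± 0.68) were not called. For Barx2 the compared groups did not overlap, with SDs of 0.09 in leukemia and 0.33 in the GFP-positive colonies. The GFP-negative arrays, which enter the spread of the fit, had an SD of 1.85. The Grainyhead motif AACNGGTT was searched on both strands of the 300 bases around gene starts. It was present in 2 of 26 tight and gap junction genes with a promoter in the table (7.69%) and in 2.24% of 16990 genes. Of the 22 called junction genes with a promoter in the table, 0 held it.

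The Hippo pathway restrains the coactivators YAP and TAZ, which bind TEAD factors at target genes, and it responds to cell contact and tension. Of 27 Hippo and caveola genes 11 were higher and 1 lower, with a median of 1.19. The TEAD factor gene Tead1 was at 6.20, 6.09 and 5.82 in leukemia and 9.85, 9.58 and 9.06 in the colonies, and Tead2 at 6.19, 6.33 and 6.20 and 9.35, 9.33 and 8.86. The groups were separated by more than 2 log2 units for both. Ccn1, a matrix-associated target of the pathway, was at 5.81, 6.39 and 5.78 and 10.40, 8.96 and 8.47, highest on replicate 1, and Amotl1, an angiomotin that holds YAP at junctions, differed by 2.73 ± 0.59 (limma adjusted p = 0.00734). Wwtr1, the gene of TAZ, and Yap1 were picked after their values were seen, since their promoters hold the TEAD motif. Wwtr1 went from 6.93, 6.52 and 6.73 to 9.51, 8.61 and 9.34 and Yap1 from 7.68, 7.37 and 7.65 to 8.28, 8.32 and 8.19. Vgll3 (difference 1.65 ± 0.57) and Cavin1 (1.96 ± 0.70) were not called.

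Both strands of the promoter window were searched for the TEAD motif GGAATG, in a list drawn up by pathway that holds known targets such as Ccn1. The motif occurred in 13 of the 22 list members with a promoter in the RefSeq table (59.1%), against 15.4% of 16990 genes. Of the 8 called members with a promoter there, 4 held it. Stretches around the motif are shown for 3 of these 4 to place the letters before the start site, with the motif in capitals (GRCm38.p6, gene strand, 5′ to 3′); a match is a description of the letters, not evidence of binding. The Ccn1 stretch lies on the minus strand at chr3:145650053-145650118 and reads the motif on the opposite strand, 103 bases before the start. The Wwtr1 stretch is on the minus strand at chr3:57576011-57576076, 136 bases before the start, and that of Yap1 on the minus strand at chr9:8004702-8004767, 141 bases before it.
Ccn1: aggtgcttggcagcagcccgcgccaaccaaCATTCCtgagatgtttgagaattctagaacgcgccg
Wwtr1: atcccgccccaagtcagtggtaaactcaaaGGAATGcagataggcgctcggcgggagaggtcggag
Yap1: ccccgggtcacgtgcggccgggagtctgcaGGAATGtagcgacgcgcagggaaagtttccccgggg

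Contractile actin genes and calcium-binding surface proteins rose as well. Of 34 actin-bundling and contractile genes 14 were higher and 0 lower, with 9 higher without leukemia replicate 2 or without leukemia replicate 3. Lima1, which cross-links actin bundles, went from 5.65, 5.63 and 6.17 to 8.27, 8.68 and 8.65 (limma adjusted p = 1.71e-05), and Palld, a stress fibre scaffold, from 5.56, 5.42 and 5.45 to 7.95, 7.95 and 8.03. Both were close together on the 3 colony arrays. Zyx, the focal adhesion protein zyxin, was not called, at 10.59, 9.16 and 9.60 against 8.45, 8.58 and 8.53. Of 19 annexin and S100 genes 11 were higher and 0 lower (7 higher without leukemia replicate 1 or without leukemia replicate 3), with a median of 2.22. S100a6 was at 8.35, 8.80 and 8.51 in leukemia and 12.70, 12.03 and 12.97 in the colonies, and Anxa8, an annexin of epithelia, at 5.69, 5.79 and 5.81 and 8.12, 8.39 and 10.90, with replicate 3 highest in both. Their list means were 9.32, 8.79 and 9.96 on GFP-positive replicates 1, 2 and 3 against 7.37 to 7.44 in leukemia.

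Tetraspanin and surface antigen genes moved in both directions. Of 29 tetraspanin and surface antigen genes 12 were higher and 5 lower. Epcam, the epithelial adhesion molecule, was even across colonies at 9.35, 9.30 and 9.65 against 5.08, 4.95 and 4.88 in leukemia. Cd109 went from 4.45, 4.44 and 3.79 to 8.26, 8.37 and 10.30, Cd55, which protects cells from complement, from 4.76, 5.46 and 4.41 to 9.02, 8.43 and 9.52, and the mucin gene Muc1 from 5.33, 5.54 and 6.10 to 8.45, 9.37 and 10.51. Cd53, a tetraspanin of leukocytes, went the other way, from 9.72, 9.57 and 9.87 to 5.76, 5.84 and 8.06, and replicate 3 kept the highest level of the colonies. Ion and nutrient transport genes of epithelia had 10 of 28 higher and 3 lower. The water channel gene Aqp3 went from 6.00, 5.61 and 5.60 to 9.94, 9.59 and 11.42, the sodium pump subunit gene Atp1b1 from 6.87, 6.63 and 6.80 to 10.58, 10.14 and 8.80, and the zinc importer gene Slc39a4 from 6.17, 6.70 and 6.66 to 9.33, 9.65 and 8.99.

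Receptors of growth factors were among the genes that rose. Of 18 EGF and hepatocyte growth factor family genes 8 were higher and 0 lower. The receptor genes Egfr (6.18, 6.04 and 6.12 in leukemia, 10.83, 9.45 and 9.78 in colonies), Erbb2 (5.69, 5.72 and 6.41 and 9.46, 8.69 and 10.11) and Erbb3 (4.93, 5.50 and 5.29 and 9.63, 8.75 and 9.82) each rose without overlap. Met, the receptor of hepatocyte growth factor, differed by 3.63 ± 0.75 (limma adjusted p = 0.00562) and Errfi1, a feedback inhibitor of EGF receptors, by 2.56 ± 0.58. The ligand gene Btc was not called at 0.87 ± 0.37 (limma adjusted p = 0.123). Of 23 FGF pathway genes 8 were higher and 0 lower, with 5 higher without leukemia replicate 3. The receptor gene Fgfr1 went from 5.97, 5.53 and 5.95 to 9.98, 8.95 and 9.23, and 2 feedback inhibitors of the pathway, Spry2 (3.08 ± 0.68) and Dusp6 (1.54 ± 0.23), rose too.

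More genes of guidance and morphogen pathways were higher than lower. The shares lower, 8.82% of ephrin and semaphorin, 5.56% of TGF-beta and BMP and 5.26% of Wnt genes, lay under the 12.3% of all genes. In the same order 55.9%, 30.6% and 23.7% were higher, against 9.6% of all genes. Of 34 ephrin and semaphorin pathway genes 19 were higher and 3 lower, with a median of 1.09. The number lower was 6 without GFP-positive replicate 3, with array weights or with a spread that differs between groups, and 5 with the filter on low values. The ephrin receptor gene Epha2 was at 5.69, 5.81 and 5.39 in leukemia and 10.32, 10.10 and 9.61 in the colonies (limma adjusted p = 3.61e-07), and its ligand gene Efna5 differed by 3.41 ± 0.64. The semaphorin receptor genes Plxnb2 and Nrp2 differed by 3.29 ± 0.33 and 4.29 ± 0.55. Ephb6, an ephrin receptor without kinase activity, was not called at -0.95 ± 0.31. In the TGF-beta and BMP list 11 of 36 were higher and 2 lower, with 7 higher without GFP-positive replicate 1 or leukemia replicate 3 and 6 without leukemia replicate 1 or leukemia replicate 2. The receptor gene Bmpr1a went from 4.98, 5.33 and 5.23 to 7.02, 7.34 and 6.92 and the inhibitor gene Smad7 from 6.37, 6.52 and 6.11 to 10.15, 9.56 and 8.18, whereas the ligand gene Bmp7 fell from 8.49, 8.38 and 8.45 to 6.77, 6.96 and 6.33. Of 38 Wnt pathway genes 9 were higher and 2 lower, with a median of 0.17. Tcf7l2, a nuclear effector of Wnt signalling, differed by 2.60 ± 0.32, the receptor gene Fzd6 by 2.16 ± 0.33 and the R-spondin receptor gene Lgr4 by 2.38 ± 0.42 (limma adjusted p = 0.00226).

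Immediate early genes, which cells switch on within minutes of stimulation, had 1 of 22 higher and 1 lower, below the shares over all genes. Klf6 rose by 2.25 ± 0.46 and Nr4a1, which antigen receptor signals induce in T cells, went from 11.42, 11.43 and 11.36 to 10.45, 9.64 and 9.40 (limma adjusted p = 0.014). Atf3 was not called, at 8.99, 8.33 and 7.10 on the colonies against 6.62, 6.71 and 6.77.

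Cholesterol synthesis genes were higher in GFP-positive colonies. Of 23 cholesterol genes 16 were higher and 2 lower, with 10 higher without leukemia replicate 1 or without leukemia replicate 3. Fdft1, which encodes squalene synthase at the entry to sterol synthesis, was at 7.95, 8.04 and 8.06 in leukemia and 11.14, 10.70 and 10.65 in the colonies. Hmgcs1, the synthase of the mevalonate pathway, differed by 1.72 ± 0.27, and Msmo1, a sterol oxidase, differed by 2.16 ± 0.27. Abca1, which exports cholesterol, rose within the same list by 2.11 ± 0.26. Srebf2, the transcription factor of the pathway, was not called at 0.38 ± 0.26. The sterol response element TCACNCCAC was found in 1 of 18 genes of the list with a promoter in the table (5.56%), against 1.43% of 16990 genes.

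Of 34 Nrf2 target and glutathione genes 15 were higher and 1 lower. Me1, the NADPH-producing malic enzyme, was among the 15 largest increases, at 3.80, 4.19 and 3.99 in leukemia and 10.03, 8.98 and 9.15 in the colonies (difference 5.39 ± 0.23, limma adjusted p = 1.1e-07). Nqo1, a quinone reductase, was at 5.32, 5.01 and 5.31 and 8.47, 8.47 and 8.19, Gstm2, a glutathione transferase, at 3.25, 3.20 and 3.84 and 7.49, 7.46 and 7.14, and Gsta4 at 6.89, 7.10 and 7.20 and 10.71, 11.52 and 12.11. The colonies lay more than 2 log2 units above leukemia on every array for these 4 genes. Glutathione transferase genes are a family of close relatives whose probes may read one another. The antioxidant response element TGACNNNGC occurred in 8 of 30 genes of the list with a promoter in the table (26.7%), against 14.9% of 16990 genes.

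Fatty acid and amino acid genes held smaller shares of rises than the Nrf2 list. Of 35 fatty acid and eicosanoid genes 9 were higher and 3 lower (5 lower without GFP-positive replicate 2). Scd1, the desaturase that makes oleate, went from 5.39, 5.83 and 5.33 to 9.35, 8.57 and 8.85 and Ptgs2, the inducible cyclooxygenase, from 5.61, 5.76 and 5.62 to 9.18, 8.54 and 9.56, while Alox5ap, the leukotriene synthesis helper of myeloid cells, fell from 9.83, 9.79 and 9.75 to 6.56, 6.82 and 9.16. Replicate 3 was within 1 log2 unit of leukemia for Alox5ap. Of 31 amino acid genes 8 were higher and 3 lower (5 higher without leukemia replicate 2, and 1 lower without any 1 leukemia array or 5 without GFP-positive replicate 2), among them Cth, which makes cysteine (4.25 ± 0.53), the arginine transporter gene Slc7a3 (4.96 ± 0.92) and the stress gene Nupr1 (3.91 ± 0.51). The transporter gene Slc7a6 went down by contrast, with a difference of -2.66 ± 0.33.

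Of 20 hypoxia genes 7 were higher and 2 lower. Epas1, which encodes HIF-2 alpha, went from 6.03, 6.37 and 6.14 to 10.41, 10.31 and 11.28, Vegfa rose by 1.73 ± 0.26 and the carbonic anhydrase gene Car12 fell from 7.03, 6.71 and 6.89 to 5.62, 5.79 and 5.75. Of 21 retinoid genes 8 were higher and 0 lower, with 5 higher without leukemia replicate 2 or without leukemia replicate 3. Crabp2, which carries retinoic acid to its receptor, went from 6.92, 6.83 and 7.18 to 10.72, 10.79 and 12.09 and Rdh10, which oxidises retinol, from 7.70, 7.52 and 7.59 to 11.13, 10.03 and 10.25. Of 28 lysosome genes 13 were higher and 1 lower. The lysosomal tetraspanin gene Cd63 went from 6.99, 7.28 and 7.30 to 12.36, 11.64 and 11.98, Grn, which encodes progranulin, from 8.43, 8.35 and 8.24 to 11.33, 10.62 and 11.26, and Laptm4b from 6.44, 5.85 and 5.89 to 10.25, 10.42 and 9.52. In the secretory pathway list 6 of 30 genes were higher (20%, against 9.6% of all genes) and 4 lower (13.3%, near the 12.3% of all genes). Without GFP-positive replicate 1 or without any 1 leukemia array 3 were higher (10%), against 6.73% to 7.51% of all genes in those fits. Without leukemia replicate 2 or leukemia replicate 3, 1 and 2 of these genes were lower. Edem1, which clears misfolded proteins from the endoplasmic reticulum, fell by 1.17 on the log2 scale and Sec24d, a coat protein of export vesicles, rose by 1.97 ± 0.30.

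**Figure D3:**
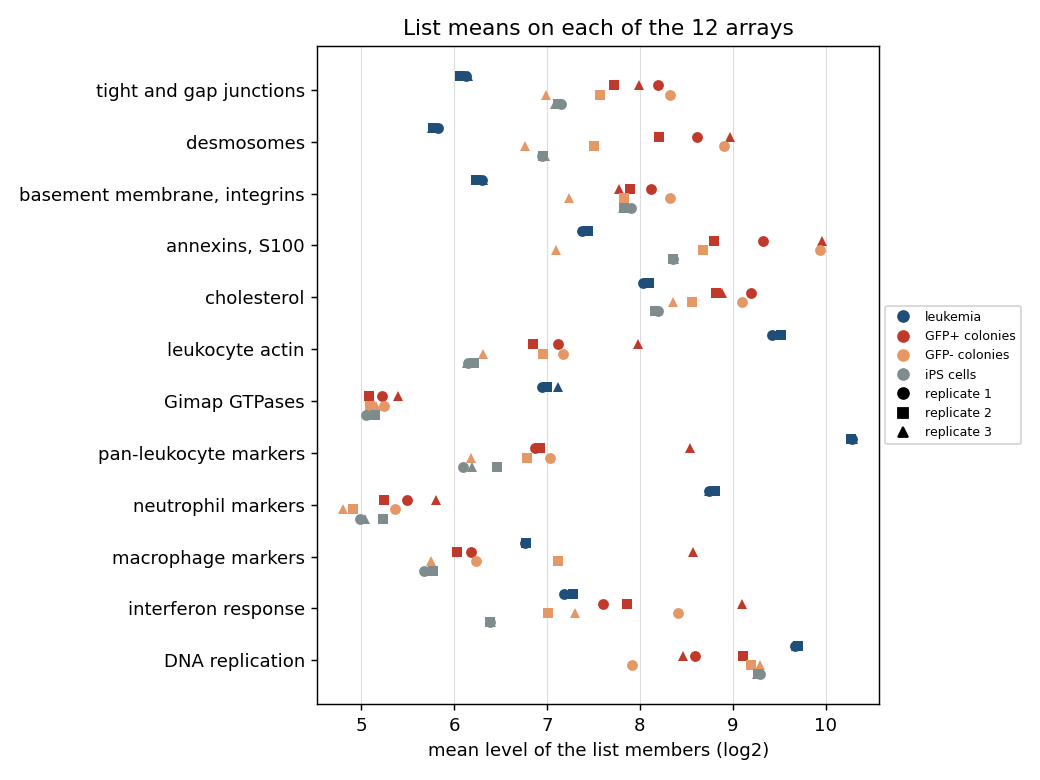
Mean level (log2) of the measured members of 12 lists on each of the 12 arrays; colour gives the group and shape the replicate number. Macrophage markers and interferon response genes were highest on GFP-positive replicate 3, neutrophil markers lay between 8.74 and 8.80 on the leukemia arrays and between 5.25 and 5.80 on the GFP-positive arrays, and junction, desmosome and annexin lists were higher on all 3 GFP-positive arrays than in leukemia.

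Many leukocyte actin regulators and immune receptor signalling genes were lower in GFP-positive colonies. Of 26 leukocyte actin regulators 19 were lower and 0 higher, with a median of -2.26. Dock2, the exchange factor that drives lymphocyte migration, was at 9.85, 9.88 and 9.82 in leukemia and 5.79, 6.40 and 7.20 in the colonies, and Dock8, needed for lymphocyte shape in tissue, at 10.91, 10.99 and 10.87 and 6.21, 5.91 and 7.81. Arhgap15, a Rac GTPase-activating protein, was at 9.59, 9.61 and 9.74 and 4.81, 4.35 and 5.85. Replicate 3 was the highest colony array for each, yet below all leukemia arrays. Cytip, which regulates leukocyte integrins, differed by -3.36 ± 0.15. Plek, the pleckstrin gene, was not called, since replicate 3 (5.75, 5.35 and 8.24 on the 3 colonies) came near the level of leukemia (8.31, 8.53 and 8.35).

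Of 32 kinases, phosphatases and adaptors of immune receptor signalling 21 were lower and 2 higher, with a median of -1.84. Prkcb, the protein kinase C of antigen receptor signalling, was at 10.23, 10.30 and 10.32 in leukemia and 5.48, 5.42 and 6.14 in the colonies. Skap1, an adaptor that couples the receptor to integrins, was at 9.33, 9.42 and 9.12 and 5.32, 5.27 and 5.55, and the adaptor gene Grap2 at 8.16, 8.40 and 8.38 and 4.94, 4.51 and 4.83. The SLAM receptor adaptor gene Sh2d1a (-4.48 ± 0.28) and Sh2d2a (-4.03 ± 0.18) changed by similar amounts. Dok2, a docking protein, was not called and lay higher on the colonies, at 7.58, 7.46 and 9.28 against 6.87, 6.99 and 7.07. Several of the 15 largest decreases belong to this machinery outside the list: Rhoh, a GTPase gene of blood cells, went from 10.90, 10.69 and 10.95 to 6.15, 5.54 and 6.96, Stap1, an adaptor of lymphoid cells, differed by -4.98 ± 0.33, and Tespa1, which couples the T cell receptor to calcium, from 8.32, 8.47 and 8.31 to 3.82, 4.11 and 3.90. Fyb, the adaptor ADAP, went from 10.65, 10.70 and 10.73 to 5.03, 4.96 and 8.46, with replicate 3 more than 3 log2 units above the other colonies.

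All 8 measured Gimap genes, small GTPases that keep lymphocytes alive, were lower, with a median of -1.76. The 8 genes lie side by side in the RefSeq table with 0 other measured genes between them. Gimap5 was at 7.71, 7.38 and 7.80 in leukemia and 4.54, 4.51 and 4.73 in GFP-positive colonies, Gimap4 at 7.04, 7.23 and 7.67 and 4.74, 4.79 and 4.99 and Gimap9 at 8.84, 8.89 and 8.91 and 5.88, 5.65 and 6.24. Their list mean was 5.22, 5.08 and 5.39 on the colony arrays and between 5.06 and 5.24 on the GFP-negative and iPS arrays, the other groups grown from or set beside the leukemia.

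Among blood transcription factors 21 of 37 were lower and 2 higher. Ikzf3, the lymphoid factor Aiolos, fell from 11.10, 10.92 and 11.10 to 4.89, 5.50 and 4.97 (difference -5.92 ± 0.26, limma adjusted p = 1.1e-07). Ets1 fell from 9.89, 9.78 and 9.74 to 6.41, 5.61 and 6.26, Tox, a factor of T cell development, from 8.61, 8.57 and 8.64 to 5.44, 5.30 and 5.38, and Myb, which many leukemias need to grow, from 12.12, 12.11 and 12.10 to 7.45, 7.66 and 8.62. No colony array reached the leukemia range for these 4 genes. The chromatin organiser gene Satb1 differed by -3.52 ± 0.53 (limma adjusted p = 0.000915). Eomes (0.82 ± 0.30) and Mef2c (-0.65 ± 0.26) were not called.

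Homing receptors and cytokine receptors fell in part. Of 28 homing genes 12 were lower and 0 higher, with a median of -0.40. Itga4, the alpha 4 integrin chain, was at 11.50, 11.40 and 11.41 in leukemia and 5.56, 5.49 and 7.17 in the colonies, Cxcr4, the receptor that retains leukemia cells in bone marrow, at 11.56, 11.52 and 11.58 and 7.17, 7.53 and 8.90, and Itgal, a chain of LFA-1, at 10.14, 10.21 and 9.94 and 6.01, 6.19 and 7.75. Cd44, a hyaluronan receptor found in both blood and epithelium, was not called and lay higher in the colonies, at 10.40, 9.86 and 11.55 against 7.71, 7.79 and 7.55. Of 39 cytokine receptor and JAK-STAT genes 11 were lower (28.2%, against 12.3% of all genes) and 4 higher (10.3%, near the 9.6% of all genes). Il2rb, a shared chain of the interleukin-2 and interleukin-15 receptors, went from 8.60, 8.71 and 8.88 to 5.36, 4.88 and 5.61 and Il27ra from 8.71, 8.77 and 8.91 to 6.26, 6.39 and 6.10. Others of this list rose: Osmr, the oncostatin M receptor, from 4.70, 5.02 and 5.17 to 8.93, 8.01 and 9.73 and Tslp, an epithelial cytokine, by 4.35 ± 1.02. Of 26 chemokine genes 2 were higher (4 without GFP-positive replicate 2) and 3 lower (5 without GFP-positive replicate 3). These shares, 7.69% higher and 11.5% lower with all arrays, lay near the 9.6% and 12.3% of all genes. Cxcl16 went from 6.84, 6.69 and 6.89 to 11.23, 9.91 and 11.21 and Cxcl2 from 8.63, 8.53 and 8.80 to 6.98, 6.97 and 7.87.

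Markers of other blood cells lay beside these losses. All 8 pan-leukocyte markers were lower. Their list mean was 10.27 to 10.30 on the leukemia arrays and 6.86, 6.93 and 8.54 on GFP-positive replicates 1, 2 and 3. Coro1a, a leukocyte coronin, was at 10.86, 10.91 and 10.78 and 6.40, 6.32 and 7.24. Ptprc, the gene of CD45, was at 11.75, 11.69 and 11.76 and 8.40, 8.83 and 10.75, and its call (limma adjusted p = 0.038) was lost without any 1 leukemia array, or without GFP-positive replicate 1 or 2 (adjusted p from 0.0953 to 0.133), with the loess scaling (adjusted p = 0.0539) and with the replicate block (adjusted p = 0.0686). Of 10 neutrophil markers 8 were lower, with list means of 8.74 to 8.80 in leukemia and 5.49, 5.25 and 5.80 in the colonies. Ngp, a neutrophil granule protein gene, went from 11.04, 11.07 and 11.16 to 4.80, 4.60 and 4.97, Camp, the cathelicidin gene, from 9.59, 9.56 and 9.35 to 3.52, 3.84 and 3.64, and S100a8 from 10.27, 10.34 and 10.25 to 5.63, 4.06 and 5.29. These 3 were among the 15 largest decreases. Of 8 B cell markers 6 were lower, led by Ighm, the immunoglobulin mu chain gene (10.71, 10.70 and 10.90 against 7.07, 6.75 and 7.07), while the list mean moved from between 6.60 and 6.64 to between 5.52 and 5.82. Of 6 measured erythroid markers 4 were lower and 1, the carbonic anhydrase gene Car2, was higher (2.75 ± 0.58).

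The leukemia arrays therefore read neutrophil, B cell and erythroid markers above the colony arrays, and how far the non-leukemic cells of the spleen took part in the losses of blood genes was not tested. The trypsinogen gene Prss2 and the kallikrein gene Klk1b22 were also among the 15 largest decreases. Prss2 went from 10.58, 10.78 and 10.45 to 3.99, 3.92 and 4.22 and Klk1b22 from 10.49, 10.86 and 10.75 to 5.95, 6.52 and 6.00. Both belong to families of near-identical genes, so which family members their probe sets read is uncertain. The same limit holds for the kallikrein gene Klk1 among the 15 largest increases. Fibroblast and endothelial markers were each called in 1 gene, Postn among 11 fibroblast markers and Tek among 8 endothelial markers. The number of fibroblast markers higher was 4 without GFP-positive replicate 2, with loess or with a spread that differs between groups, 6 with array weights and 3 with the filter on low values, but 0 without GFP-positive replicate 1 or any 1 of the leukemia arrays. Postn was at 6.59, 5.08 and 7.14 against 4.40, 4.35 and 4.62 and lost its call without any 1 leukemia array, or without GFP-positive replicate 1 or 3 (limma adjusted p from 0.085 to 0.119, against 0.0391 with all arrays). Tek, the receptor of angiopoietins, was at 6.45, 6.88 and 7.64 against 5.32, 5.24 and 5.21.

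A minority of interferon response genes passed the test, and the list spread widely among the colony arrays. Cells make these antiviral proteins after type I or type II interferon or on sensing foreign nucleic acid. Of 34 measured genes 9 were higher and 1 lower, with a median of 1.04. On every colony array 21 of the 34 lay above all leukemia arrays, a pattern that 18.1% of all genes had. The list mean was 7.60, 7.86 and 9.10 on GFP-positive replicates 1, 2 and 3, against 7.19 to 7.28 on the leukemia arrays. Without GFP-positive replicate 3, or without any 1 leukemia array, 4 genes (11.8%) were higher, against 6.73% to 9.56% of all genes in those fits. Oasl2, an oligoadenylate synthase-like gene, was at 6.71, 7.07 and 7.01 in leukemia and 8.89, 9.05 and 10.47 in the colonies (difference 2.54 ± 0.54, limma adjusted p = 0.00683). Usp18, which removes the ubiquitin-like modifier ISG15, was at 6.35, 6.52 and 6.50 and 7.95, 9.06 and 9.95, and Ifit1, which binds foreign RNA, at 6.09, 5.63 and 5.52 and 6.68, 7.90 and 9.41. All colony arrays exceeded all leukemia arrays for these 3 genes. Without GFP-positive replicate 3 the adjusted p of limma was 0.0766 for Usp18 and 0.1 for Ifit1, and both calls were also lost without any 1 leukemia array, or without GFP-positive replicate 2 (adjusted p from 0.0563 to 0.108). With the replicate block the adjusted p of Ifit1 was 0.0567. Gbp3 (difference 1.55 ± 0.65) and Oas2 (1.91 ± 0.78) were not called.

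Macrophage markers moved with the interferon genes on 1 array. On GFP-positive replicate 3 all 18 macrophage markers lay above their leukemia mean, by a median of 1.64, whereas 4 of the 18 did on replicate 1 and 4 on replicate 2. Their list mean was 6.18, 6.03 and 8.57 on replicates 1, 2 and 3, against 6.76 to 6.77 in leukemia. The complement gene C1qb read 6.19, 6.64 and 10.87 on the colonies against 6.51, 6.63 and 6.26 in leukemia, C1qa 6.29, 6.65 and 10.11 against 6.86, 6.71 and 6.64 and Tyrobp, a signalling adaptor of myeloid cells, 5.78, 5.61 and 10.28 against 9.15, 9.48 and 8.83. None of these 3 was called. Of the 18 markers 1 was called, the lysosomal glycoprotein gene Cd68, which was higher. Cd68 read 9.47, 9.39 and 10.43 on the colonies against 8.39, 8.33 and 8.24 in leukemia. The list median was 0.28 with 0 markers lower, and without GFP-positive replicate 3 it was -0.49 with 5 markers lower. It was -0.04 over the 13 markers that passed the filter on low values. The interferon genes lay above their leukemia mean by a median of 0.52 on replicate 1, 0.59 on replicate 2 and 1.96 on replicate 3. Whether cells with macrophage transcripts carried the interferon, Itgal, Fyb, Cd53 or lysosome values of replicate 3 was not tested.

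**Figure D4:**
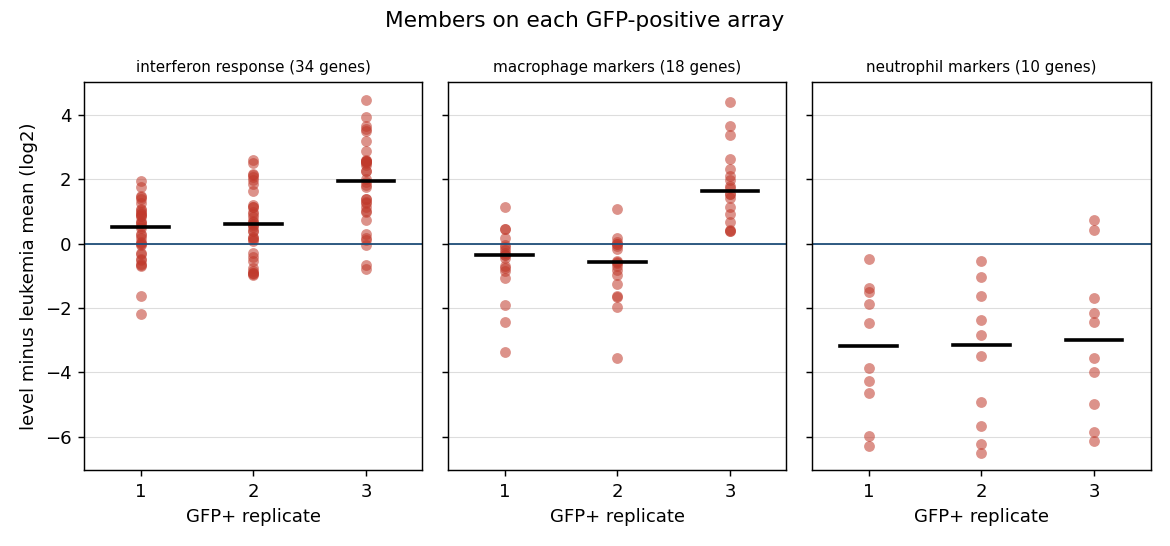
Level of each list member on GFP-positive replicates 1, 2 and 3 minus its mean in leukemia (log2); points are genes, thick bars their medians and the horizontal line the leukemia mean. The interferon medians lie above the line on all 3 arrays, with 23, 25 and 31 of the 34 genes above it on replicates 1, 2 and 3. All 18 macrophage markers lie above the line on replicate 3, and the neutrophil medians lie below it on every array, with 2 of 10 genes above it on replicate 3.

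The interferon-stimulated response element was searched on both strands of the promoter window, in a list of genes known to respond to interferon. The element occurred in 14 of the 27 interferon list members with a promoter in the RefSeq table (51.9%), against 3.87% of 16990 genes. Of the 8 called members with a promoter there, 5 held it. Stretches are shown for 3 of the 5, picked after their values were seen, to set the element beside the levels (GRCm38.p6, gene strand, 5′ to 3′, every match in capitals). Bst2, which tethers budding virus, went from 7.41, 7.50 and 7.40 to 8.43, 8.56 and 8.72, nearly even across the colonies (limma adjusted p = 0.00138). Ifitm2, a membrane protein against virus entry, went from 9.30, 9.40 and 9.40 to 11.12, 11.89 and 11.28 (limma adjusted p = 0.00017). The stretch of Ifit1 lies on the plus strand at chr19:34640774-34640843 and holds 2 matches, the one nearest the start site beginning 85 bases before it, that of Bst2 on the minus strand at chr8:71537557-71537626 (2 overlapping matches, the nearest 124 bases before) and that of Ifitm2 on the minus strand at chr7:140955968-140956037 (1 match, 46 bases before).
Ifit1: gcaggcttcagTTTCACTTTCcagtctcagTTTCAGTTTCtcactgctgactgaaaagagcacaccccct
Bst2: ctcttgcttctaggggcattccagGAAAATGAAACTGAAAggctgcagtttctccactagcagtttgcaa
Ifitm2: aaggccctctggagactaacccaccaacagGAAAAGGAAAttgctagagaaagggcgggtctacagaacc

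DNA replication genes were lower in the colonies. Of 30 measured genes 13 were lower and 0 higher, with a median of -1.02, and 25 lay below leukemia on every colony array, which 23.8% of all genes did. The number lower was 8 without any 1 leukemia array, or without GFP-positive replicate 1 or 3, and 21 with the 6 arrays fitted alone. Tk1, the salvage kinase of thymidine, was at 9.50, 9.47 and 9.52 in leukemia and 7.40, 7.71 and 8.39 in the colonies. Dck, the deoxycytidine kinase, was at 8.62, 8.63 and 8.62 and 7.16, 7.01 and 6.93, and Cdc6, which loads the replicative helicase, at 10.07, 10.05 and 10.07 and 8.56, 8.75 and 7.96. Gins3, a subunit of the helicase complex, differed by -1.71 ± 0.31 (limma adjusted p = 0.00267). The list mean was 8.59, 9.11 and 8.46 on GFP-positive replicates 1, 2 and 3 against 9.67 to 9.70 in leukemia. Among 20 cyclin, kinase and retinoblastoma family genes 5 were lower and 2 higher (8 lower without GFP-positive replicate 2). The share lower was 25%, against 12.3% of all genes, and the share higher, 10%, lay near the 9.6% of all genes. E2f2, an activator of replication genes, went from 8.89, 8.97 and 8.88 to 5.93, 6.13 and 6.20, and Cdk6, the kinase partner of D cyclins in T cells, from 10.58, 10.62 and 10.62 to 8.28, 8.30 and 9.55. Ccnd1, the cyclin D of epithelial and mesenchymal cells, rose from 6.26, 6.19 and 6.19 to 9.27, 9.27 and 11.07.

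The E2F motif TTTCCCGC was searched on both strands. It occurred in 6 of the 26 replication genes with a promoter in the table (23.1%), against 1.61% of 16990 genes. The list was drawn up by function, so this share describes the list and not the fall in the colonies. Of the 13 called members 4 held the motif. The stretches of Cdc6 and Gins3 are shown because both genes fell and hold the motif within the bases before the start, on the opposite strand (GRCm38.p6, plus strand, motif in capitals). Cdc6 lies at chr11:98907983-98908050, 138 bases before the start, and Gins3 at chr8:95633488-95633555, 41 bases before it.
Cdc6: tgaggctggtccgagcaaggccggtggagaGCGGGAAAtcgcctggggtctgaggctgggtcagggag
Gins3: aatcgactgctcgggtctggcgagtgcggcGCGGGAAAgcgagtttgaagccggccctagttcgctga

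Apoptosis genes changed in few members, 4 of 33 higher and 1 lower (3 lower without GFP-positive replicate 3). The share higher, 12.1%, lay near the 9.6% of all genes, and the share lower, 3.03%, lay under the 12.3% of all genes. Tnfrsf10b, a death receptor gene, went from 6.29, 6.49 and 6.25 to 9.36, 9.38 and 8.66, Tnfrsf21 from 6.25, 6.16 and 6.11 to 8.74, 8.43 and 10.05 and Bok, a Bcl2 family member of the endoplasmic reticulum, from 7.12, 7.31 and 6.89 to 9.11, 8.82 and 9.87. Casp2 fell from 9.50, 9.51 and 9.57 to 7.69, 7.91 and 8.36 (limma adjusted p = 0.00229).

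MicroRNA genes, a group picked after the values were seen, included precursors of lymphocyte microRNAs that were lower in GFP-positive colonies. These probe sets read precursor or host transcripts, so mature microRNAs were not measured. Of 483 microRNA genes 7 were higher (1.45%) and 48 lower (9.94%), against 9.6% and 12.3% of all genes, and 37 were lower after cyclic loess scaling. A microRNA finds its targets mainly through its seed, bases 2 to 8, set in capitals in the RefSeq sequences below (GRCm38.p6). Of 420 microRNA genes with a mature sequence in the table, 6 carry the miR-181 seed ACAUUCA, and 4 of these were lower. The number lower was 3 without leukemia replicate 1 or 2, after loess, with a spread that differs between groups or with the filter on low values. It was 5 without GFP-positive replicate 3 or with array weights. The miR-15 and miR-16 seed AGCAGCA is also carried by 6 measured genes, 4 of which were lower (2 without leukemia replicate 1, and 3 without GFP-positive replicate 1, leukemia replicate 2 or leukemia replicate 3). With the filter on low values, a group mean above 6.20, none of these 4 genes was tested, since all of them lay under it. The miR-181, miR-15 and miR-16 sequences are shown because each family shares its seed and differs in the rest. Those of miR-142a-3p and miR-200b-3p are shown for the called genes Mir142 and Mir200b, without other carriers of their seeds.
miR-181a-5p: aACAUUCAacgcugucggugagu
miR-181b-5p: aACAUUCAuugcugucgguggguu
miR-181c-5p: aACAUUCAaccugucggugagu
miR-15b-5p: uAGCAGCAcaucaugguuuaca
miR-16-5p: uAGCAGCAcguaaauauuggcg
miR-142a-3p: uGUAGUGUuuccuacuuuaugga
miR-200b-3p: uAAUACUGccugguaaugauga

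Mir181b-1, on chromosome 1 beside Mir181a-1, was at 7.10, 6.54 and 6.46 in leukemia and 3.17, 3.10 and 3.30 in the colonies (difference -3.51 ± 0.19, limma adjusted p = 5.87e-07). Mir181a-1 was at 4.70, 4.23 and 4.44 and 2.94, 3.10 and 2.81. Its group means all lay under 6.20, so the filter on low values left it out. The chromosome 2 copies, which encode the same mature miR-181a and miR-181b, were not called: Mir181b-2 was at 5.12, 4.83 and 4.97 and 4.36, 4.16 and 5.02, and Mir181a-2 at 5.96, 5.32 and 6.42 and 5.95, 5.78 and 5.93, with overlapping groups. The difference between the 2 loci was not tested. Mir181c, on chromosome 8, differed by -1.48 ± 0.21 (limma adjusted p = 0.000683). Mir142, expressed across blood cells, was at 9.33, 9.29 and 9.22 and 5.83, 6.62 and 8.08, with replicate 3 highest among the colonies as for the pan-leukocyte markers. In the miR-15 family Mir15b, on chromosome 3, was at 3.46, 3.80 and 3.38 and 2.51, 2.84 and 2.61, while Mir15a, on chromosome 14, was not called at a difference of -0.15 ± 0.26. Mir106b, which sits in the replication gene Mcm7, went from 7.89, 8.08 and 8.37 to 5.60, 6.36 and 6.21. Mir200b, a microRNA of epithelia that targets the Zeb repressors, rose from 5.04, 5.02 and 5.08 to 5.50, 5.73 and 6.16 (limma adjusted p = 0.0107). All of its group means lay under 6.20, so the filter on low values left it out. Mir200c, which carries the same miR-200b-3p seed, was not called at a difference of 0.029 (limma adjusted p = 0.933). Mir200a was not called either, at 0.28 (limma adjusted p = 0.268).

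**Figure D5:**
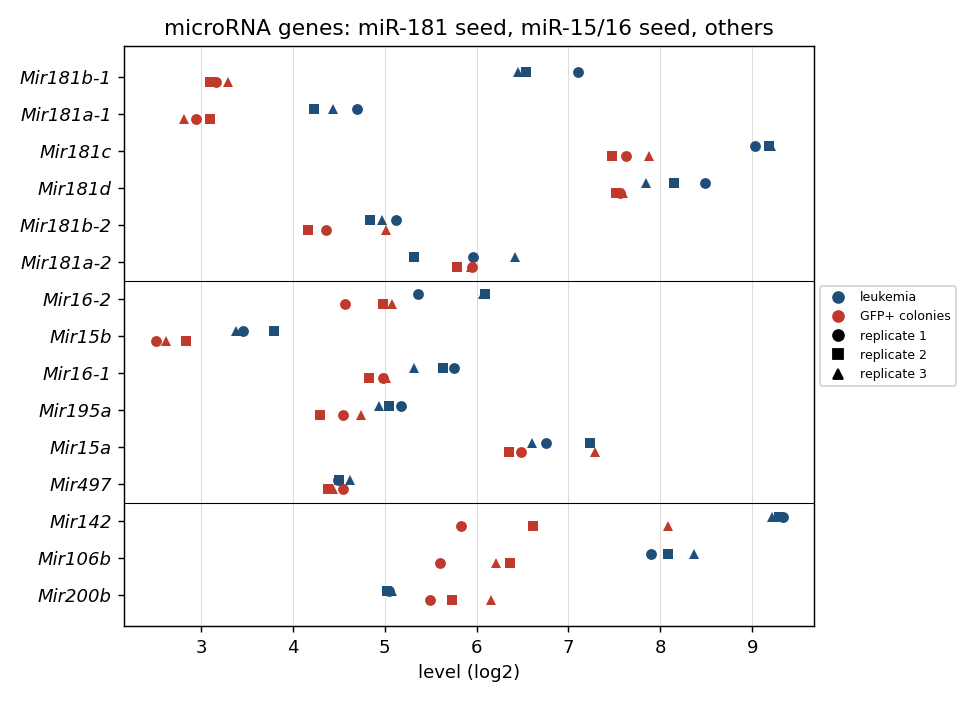
Level (log2) of microRNA genes on the 3 leukemia and 3 GFP-positive arrays; lines divide the genes with the miR-181 seed, those with the miR-15 and miR-16 seed, and 3 others, and the shape gives the replicate number. Mir181b-1 and Mir181a-1 were lower on all 3 colony arrays, whereas Mir181a-2 overlapped between groups.

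The levels of a few leading genes in the other groups show where GFP-positive colonies stood, side by side and without a test. Cdh1 averaged 12.43 ± 0.22 in the GFP-positive, 11.95 ± 0.76 in the GFP-negative colonies and 11.40 ± 0.02 in the iPS cells (mean ± SD). Dsg3 averaged 10.44 ± 0.87, 7.48 ± 2.97 and 5.04 ± 0.11, and Tjp1 9.76 ± 0.33, 9.59 ± 0.71 and 8.82 ± 0.09, in the same order. Of the losses, Ikzf3 averaged 5.12 ± 0.33, 4.99 ± 0.36 and 4.89 ± 0.47, and Ngp 4.79 ± 0.19, 5.09 ± 0.14 and 5.13 ± 0.57. Both were within 1 log2 unit of the iPS level in the GFP-positive colonies.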

How the data were processed

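RNA of 12 samples was measured on Affymetrix arrays, 3 in each of 4 groups, with Trizol extraction of total RNA and biotin labelling of cRNA, per the labels' protocols. Each array's deposited file values are log2 RMA levels per probe set, per the submitters' processing notes. RMA corrects background, equalises the distributions of the arrays and summarises probes, so a shift shared by most genes cannot be seen. Software, version and filters: not given in the sources used here. Array medians lay between 5.76 and 5.82. Precision is limited by how many arrays there were, and signal over background was not measured.

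Of 41345 probe sets, 23521 had 1 gene symbol in the platform annotation, 1814 had several and 16010 had none, and only the first were used. For each gene the probe set brightest on average across the 12 arrays was used, giving 22180 genes, of which 1082 had more than 1. Entrez identifiers of 21994 genes matched the RefSeq table (GRCm38.p6), and 186 did not. For no named gene did another called probe set have the opposite direction.

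Group means over all 12 arrays were modelled with limma 3.58.1 in R 4.3.3 and empirical Bayes moderation, and tested on simulated data. P-values were adjusted by the Benjamini-Hochberg method over all genes. The gene lists, the members and the comparison were chosen with earlier results of these data known, so no count is adjusted over a list alone. Genes were named from the called genes with no overlap between groups, 15 with the largest rise and 15 with the largest fall (without keratin, T lineage, pluripotency, receptor-segment and unnamed loci), then from each list up to 5 called and up to 2 uncalled members by size, and marker genes. MicroRNA genes and the genes picked for promoter letters fall outside this rule. Promoters span 250 bases before to 50 after each start in RefSeq, and a gene counted as holding a motif if any of its promoters did. Alternatives were the 6 arrays alone, array weights, a spread that differs between groups, the replicate number as a block, cyclic loess, a filter on low values (a group mean above 6.20), the mean of probe sets, and leaving out each of the 6 arrays. Same-numbered arrays had small correlations of 0.037, 0.030 and 0.017 between their deviations from the group means. Differently numbered arrays had correlations from -0.032 to -0.005. Whether the numbers in the titles pair the samples was not tested.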

Additional observations from a re-analysis of the deposited data

How the results depend on the processing

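The counts of 2129 higher and 2719 lower genes became 3859 and 4329 with array weights, where GFP-positive arrays count unequally. Leaving out 1 of the 6 arrays gave 1492 to 2124 higher and 1907 to 2648 lower genes, 1088 to 1468 higher and 885 to 1111 lower by at least 2-fold. With the replicate block 2071 were higher and 2535 lower, and of the named genes it ended the calls of Ifit1 and Ptprc alone. Same-numbered arrays of the compared groups were only weakly correlated. Cyclic loess moved the median over all genes from -0.04 to 0.05 and gave 2702 higher and 2029 lower genes, and it ended the calls of Ptprc and Mir181d. Of 169 called named genes, 160 kept their call without any 1 array. Without 1 array C1qa ranged from -0.27 to 1.64 and C1qb from -0.056 to 2.29, both negative without GFP-positive replicate 3. The uncalled Mir181a-2 turned to 0.019 with array weights and 0.094 with loess and ranged from -0.30 to 0.25 without 1 array, and Mir15a from -0.45 to 0.029. With array weights, members higher went from 9 to 16 for interferon, 8 to 13 for proteoglycans, 8 to 18 for surface proteases, 12 to 19 for epithelial regulators, 11 to 20 for Hippo, 14 to 25 for contractile actin, 8 to 15 for FGF, 11 to 18 for TGF-beta, 8 to 14 for amino acids, 9 to 18 for fatty acids and 6 to 10 for the secretory pathway, and members lower from 13 to 27 for replication, 5 to 14 for cyclins and 5 to 8 for surface antigens. With a spread that differs between groups, members higher were 15 for interferon, 14 for surface proteases, 18 for Hippo and 14 for fatty acids, and members lower 21 for replication and 9 for cyclins. With the 6 arrays alone 13 surface protease genes were higher and 21 replication genes lower. The filter on low values left 2 of 6 B cell calls, since most of these genes lay under it. MicroRNA genes higher and lower numbered 7 and 48, but 27 and 70 with array weights and 12 and 47 with the 6 arrays alone, and 4 to 8 and 32 to 55 without 1 array. These array values carry no depth, and 3 arrays a group bound what can be seen.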
